A study of Rattus norvegicus with 31 samples.

Results

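The Cyp2c family of hepatic P450s was followed through livers of 31 female Wistar rats (Crl:WI) treated by daily oral gavage for 28 days. Members were the genes whose symbol begins with Cyp2c and a digit and whose counts summed to at least 100 over all rats. This gave 6 members among 8 rows of that name pattern and 26312 genes in all. In order of their total counts the members were Cyp2c7, Cyp2c12, Cyp2c23, Cyp2c22, Cyp2c13 and Cyp2c11, with sums of 10393877, 7420665, 2290642, 1253467, 703 and 535. Cyp2c24 with 51 counts and Cyp2c79 with 36 counts fell under the minimum. The 8 Control rats received the vehicle alone, aqueous carboxymethyl-cellulose. The single compounds were thiacloprid (THI) at 108 mg/kg bw/day in 4 rats, imazalil (IMZ) at 93 mg/kg bw/day in 4 rats and clothianidin (CTD) at 288 mg/kg bw/day in 3 rats. The paper marks this CTD group as one with killing of moribund animals, so its 3 rats are those that remained. The binary mixtures, with 4 rats each, were THI + IMZ at 54 and 46 mg/kg bw/day, THI + CTD at 54 and 134 mg/kg bw/day, and IMZ + CTD at 46 and 135 mg/kg bw/day. THI and CTD are neonicotinoid insecticides and IMZ is an azole fungicide. All rats were young adult females, allocated to groups at random, and no male livers were among the samples. Each value comes from 1 rat.

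Cytochromes P450 of the 2C subfamily are hemoproteins of the hepatocyte endoplasmic reticulum that oxidize steroids, retinoids, fatty acids and drugs with electrons from the reductase Por. In the rat several of them are textbook sex-dependent genes. The near-continuous release of growth hormone in females favors Cyp2c12 and Cyp2c7, whereas the pulses of males drive Cyp2c11 and Cyp2c13 through the JAK2 and STAT5b pathway. The receptors CAR and PXR, the usual mediators of P450 induction by pesticides and barbiturates, act on some family members and far more strongly on Cyp2b and Cyp3a genes. Cyp2c7 is a retinoic acid hydroxylase, Cyp2c12 a hydroxylase of steroid sulfates, Cyp2c11 and Cyp2c13 hydroxylate testosterone and related steroids, and Cyp2c23 is an epoxygenase of arachidonic acid. Cyp2c22 is listed in RefSeq with the synonym Cyp2c70, the name of the mouse enzyme that forms muricholic acids from bile acids.

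The upstream sequences are shown of the 4 members named above with a female or male pattern. Among them are Cyp2c7 and Cyp2c11, whose variation between rats is described further on. Whether Cyp2c22 or Cyp2c23 has such a pattern was not examined, as no male livers were among the samples. Each line holds the 250 bases before the RefSeq transcription start in build GRCr8, read 5′ to 3′ along the gene. Capitals mark matches to CAAAGNNCA, the core of binding sites of the liver receptor HNF4 alpha.
Cyp2c7 (chr1:247966144-247966393, plus strand): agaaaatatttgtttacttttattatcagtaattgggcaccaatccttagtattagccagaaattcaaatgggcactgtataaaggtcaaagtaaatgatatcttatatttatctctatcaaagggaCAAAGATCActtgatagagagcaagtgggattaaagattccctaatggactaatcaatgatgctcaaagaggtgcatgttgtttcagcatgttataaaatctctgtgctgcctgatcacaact
Cyp2c12 (chr1:248677035-248677284, minus strand): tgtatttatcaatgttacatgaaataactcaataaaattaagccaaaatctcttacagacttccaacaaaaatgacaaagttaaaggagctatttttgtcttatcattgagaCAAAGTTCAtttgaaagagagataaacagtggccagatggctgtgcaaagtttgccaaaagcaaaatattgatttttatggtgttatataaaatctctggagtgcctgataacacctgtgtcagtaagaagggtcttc
Cyp2c13 (chr1:248787189-248787438, minus strand): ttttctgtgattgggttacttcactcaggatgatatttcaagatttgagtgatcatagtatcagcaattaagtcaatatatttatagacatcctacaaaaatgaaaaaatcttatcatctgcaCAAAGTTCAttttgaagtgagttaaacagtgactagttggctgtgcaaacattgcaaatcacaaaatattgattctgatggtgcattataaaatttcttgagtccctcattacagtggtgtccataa
Cyp2c11 (chr1:246174966-246175215, plus strand): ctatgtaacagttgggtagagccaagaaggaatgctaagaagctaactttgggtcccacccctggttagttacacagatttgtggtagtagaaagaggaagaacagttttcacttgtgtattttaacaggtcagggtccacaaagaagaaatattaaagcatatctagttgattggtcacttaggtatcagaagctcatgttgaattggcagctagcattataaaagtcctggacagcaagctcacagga
The search read both strands of the 250 bases of all 6 members. CAAAGNNCA was found in 3 of 6 members, Cyp2c7, Cyp2c12 and Cyp2c13, against 5.22% of 33469 RefSeq promoters of this length. It lay 123 to 115 bases before the start of Cyp2c7, 138 to 130 bases before that of Cyp2c12 and 127 to 119 bases before that of Cyp2c13. The same 3 members held ATTGAT, the core of sites of the growth hormone dependent factor Onecut1 (HNF6), which 7.1% of promoters hold. TATAAA was found in 5 of 6 members, all but Cyp2c23, against 12.9% of promoters. TTCNNNGAA, the form of STAT5 sites, had no match in any of the 6 windows and one in 7.67% of promoters. Cyp2c12 and Cyp2c13 hold the same 9 bases, CAAAGTTCA, whereas Cyp2c7 has CAAAGATCA. These members are near neighbors on chromosome 1 and related in sequence, so their shared letters are not separate events, and a match is a description of the window rather than of a bound factor.

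In units of 1e+06 counts, library totals ran from 31.8 to 101 with a median of 41.0, and the Control libraries were deeper (median 60.5) than those of treated rats (median 40.2). The 6 members took 1.2% to 1.8% of all counts of a library. Levels are given as counts-per-million (CPM) scaled by TMM, a normalization factor for library composition. Transcript lengths were not used, so CPM values of the members are compared between rats and not between genes. Marker sums are given only as rough levels of each list. Markers of hepatocytes (8 genes) summed to 127728 to 210702 CPM over all rats, while those of kidney summed to at most 0.134 CPM. Lymphocyte markers were also low, with sums of at most 2.43 CPM for T and NK cells and 0.588 CPM for B and plasma cells. Markers of bile ducts and intestine had no call in any treatment, 1 of 6 markers of sinusoidal endothelium (Kdr) fell in CTD and in THI + CTD, and 1 of 7 tested markers of stellate cells and fibroblasts rose and 1 fell in each of these 2 groups. Of the hepatocyte markers 1 fell in CTD, 2 fell in THI + CTD and 1 rose in THI + IMZ. Over all genes the share called was 12.7% in CTD, 4.39% in THI + CTD and 1.18% in THI + IMZ.

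No Cyp2c member passed the test against Control in any treatment. The edgeR quasi-likelihood test with Benjamini-Hochberg adjustment over 19904 genes called 0 of 6 members at an adjusted p under 0.05 in each of the 6 comparisons. The share of all genes called was 0.543% under THI, 0.251% under IMZ and 12.7% under CTD. Among the mixtures it was 1.18% with THI + IMZ, 4.39% with THI + CTD and 1.46% with IMZ + CTD. With shares of at most 12.7%, 0 of 6 does not set the family apart from other genes in any treatment. Over the 36 values of 6 members and 6 treatments, 4 had an unadjusted p under 0.05 and the smallest adjusted p was 0.0797. By treatment these were 0 of 6 under THI and IMZ (8.68% and 8.08% of all genes), 1 of 6 under CTD (25.2%), 1 of 6 under THI + IMZ (11.1%), 2 of 6 under THI + CTD (17.6%) and 0 of 6 under IMZ + CTD (12.8%). The DESeq2 Wald test also called 0 of 6 members in each of these comparisons, with 3 values at an unadjusted p under 0.05. For the 4 well-covered members, the 95% intervals of all log2 fold changes lay between -0.82 and 1.18, that is between 0.566-fold and 2.26-fold of Control.

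**Figure D1:**
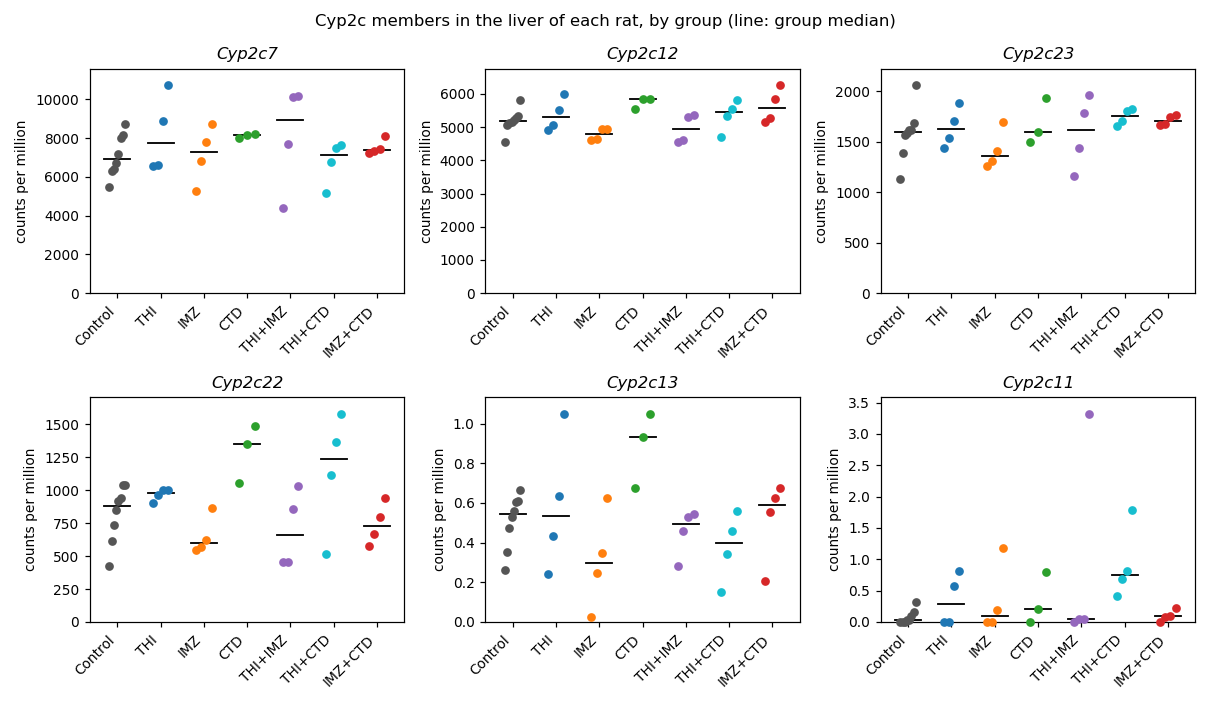
CPM (linear axis from 0) of the 6 Cyp2c members in each of the 31 rats, by group on the horizontal axis, with 1 point per rat and a line at the group median. Treated and Control rats overlap except for Cyp2c22 and Cyp2c13 in CTD and Cyp2c11 in THI + CTD.

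Cyp2c7 and Cyp2c12, described above with a female pattern, did not pass the test in any treatment. Cyp2c7 was at 5460 to 8737 CPM with a median of 6936 in the 8 Control rats. It was at 6555, 8910, 10737 and 6629 CPM in the THI rats, at 6799, 5297, 7806 and 8747 CPM in the IMZ rats and at 8152, 7990 and 8234 CPM in the CTD rats. All 3 CTD rats lay inside the Control range, and the THI and IMZ rats fell on both sides of the Control median. In the mixtures Cyp2c7 was at 10140, 10191, 7719 and 4399 CPM under THI + IMZ, at 7629, 7482, 6753 and 5158 CPM under THI + CTD and at 7443, 7215, 8106 and 7363 CPM under IMZ + CTD. The THI + IMZ group held the lowest of all 31 rats, replicate 4, beside 2 of the highest, a 2.32-fold range. Log2 fold changes against Control ran from -0.08 ± 0.17 (SE) under THI + CTD to 0.21 ± 0.17 under THI, and their 95% intervals from -0.42 to 0.57. Adjusted p-values of edgeR were 0.558 to 1.

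Cyp2c12 was the steadiest member. It was at 4548 to 5823 CPM with a median of 5188 in Control rats. Values were 4918, 5532, 5996 and 5074 CPM under THI, 4651, 4602, 4954 and 4941 CPM under IMZ and 5533, 5861 and 5840 CPM under CTD. Under the mixtures they were 4610, 5362, 5306 and 4561 CPM for THI + IMZ, 5804, 5554, 5342 and 4689 CPM for THI + CTD and 5280, 5162, 5861 and 6265 CPM for IMZ + CTD. Every group overlapped the Control range, with the IMZ rats in its lower part and 2 of the 3 CTD rats just above its upper end. Log2 fold changes were between -0.12 ± 0.08 under IMZ and 0.14 ± 0.09 under CTD, with adjusted p-values of edgeR from 0.324 to 0.881. The SD between rats of the same group was 0.11 on the log2 CPM scale, against 0.30 for Cyp2c7.

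Cyp2c23, the arachidonic acid epoxygenase, was at 1131 to 2058 CPM with a median of 1598 in Control rats. It was at 1708, 1535, 1434 and 1883 CPM under THI, 1260, 1409, 1695 and 1305 CPM under IMZ and 1499, 1935 and 1594 CPM under CTD. The mixtures gave 1439, 1154, 1782 and 1963 CPM for THI + IMZ, 1825, 1707, 1802 and 1656 CPM for THI + CTD and 1740, 1676, 1664 and 1763 CPM for IMZ + CTD. All 23 treated rats lay between the lowest and the highest Control rat. Log2 fold changes ran from -0.16 ± 0.12 under IMZ to 0.15 ± 0.12 under THI + CTD, and for this gene and Cyp2c12 together the 95% intervals stayed between -0.41 and 0.40. Adjusted p-values of edgeR were 0.558 to 1.

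Cyp2c22 had the largest difference among the well-covered members. It was at 427 to 1041 CPM with a median of 882 in Control rats and at 1353, 1484 and 1056 CPM in the 3 CTD rats. Each CTD rat was above every Control rat, though the nearest pair differed little. The log2 fold change was 0.66 ± 0.25 (95% interval 0.15 to 1.18), with an adjusted p of 0.084 in edgeR, and so it did not pass. Without THI + CTD replicate 4 in the common fit the change was 0.66 with an adjusted p of 0.0441 (edgeR). Under THI + CTD the rats were at 1113, 1577, 1364 and 516 CPM, 3 above all Control rats and 1 near their lowest, for a log2 fold change of 0.48 ± 0.23 (adjusted p = 0.275, edgeR). Values were 1001, 997, 899 and 965 CPM under THI, 624, 864, 567 and 545 CPM under IMZ, 458, 454, 855 and 1029 CPM under THI + IMZ and 576, 665, 796 and 941 CPM under IMZ + CTD. The log2 fold changes there were 0.24 ± 0.23 for THI, -0.33 ± 0.24 for IMZ, -0.23 ± 0.24 for THI + IMZ and -0.14 ± 0.24 for IMZ + CTD, and these groups overlapped Control. Red blood cell markers moved with the CTD group. All 4 of them (Hbb, Hba1, Hba2 and Alas2) rose, and their sum was 152 to 184 CPM in CTD rats against 18.8 to 61.5 CPM in Control rats. Of 9 Kupffer cell and macrophage markers, 4 fell in CTD, with sums of 352 to 508 CPM against 455 to 723 CPM in Control. Over all genes 12.7% were called in CTD. The part of these markers in the Cyp2c22 values was not tested, and in whole tissue fewer cells of a type and less RNA per cell cannot be told apart.

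Cyp2c13 and Cyp2c11, described above with a male pattern, were at the edge of detection in these females. Cyp2c13 had 13 to 49 counts in Control rats and 1 to 44 counts in treated rats, at most 1.05 CPM. In CTD it had 26, 36 and 34 counts, or 0.676, 0.93 and 1.05 CPM, all above the Control range of 0.262 to 0.664 CPM with a median of 0.545. Its log2 fold change was 0.80 ± 0.44 under CTD (adjusted p = 0.263, edgeR) and between -0.68 ± 0.44 under IMZ and 0.22 ± 0.41 under THI in the other treatments. In CTD 2 of 6 members, Cyp2c22 and Cyp2c13, did not overlap Control, where 10.8% of all genes did not. In THI + CTD 1 of 6, Cyp2c11, did not, against 3.96% of all genes. In the other groups 0 of 6 were outside, where the share of all genes was 1.42% for THI, 1.27% for IMZ, 1.46% for THI + IMZ and 2.62% for IMZ + CTD.

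Counts of Cyp2c11 differed widely between rats. It had 0 counts in 10 of 31 rats, and in the Control group 4, 0, 1, 21, 8, 11, 0 and 0 counts. Under THI it had 21, 0, 0 and 34 counts, under IMZ 10, 48, 0 and 0 and under CTD 8, 31 and 0. The mixtures gave 0, 2, 2 and 157 counts for THI + IMZ, 17, 31, 84 and 32 for THI + CTD and 7, 3, 0 and 3 for IMZ + CTD. The total of 161 counts under THI + IMZ rested almost wholly on replicate 4, which gave 157 of them, and without this rat the fitted log2 fold change was -1.31 (adjusted p = 0.778, edgeR). THI + CTD was the one group in which all 4 rats were above every Control rat, at 0.41, 0.691, 1.79 and 0.81 CPM against 0 to 0.324 CPM. The fitted log2 fold change there was 3.34 ± 1.10 (adjusted p = 0.0797), and under THI + IMZ it was 3.25 ± 1.10 (adjusted p = 0.186), neither past the edgeR threshold. The THI + CTD value passed in a fit of only the 2 groups compared, with 3.35 and an adjusted p of 0.0082, and without Control replicate 4 it was 4.03 (adjusted p = 0.0443) and without THI + IMZ replicate 4, which shares in the common estimate of spread, 3.35 (adjusted p = 0.0376). It also passed under the newer quasi-likelihood method of edgeR, with an adjusted p of 0.0383. It did not pass by the DESeq2 Wald test (3.49 ± 1.64, adjusted p = 0.172), and over all alternatives the adjusted p ran from 0.0082 to 0.272, the latter without THI + CTD replicate 3 (2.80). A count of 0 in these libraries allows at most the level of 3 counts, which is 0.055 to 0.0923 CPM in the 10 libraries concerned, counting error only. Rats with 1 to 4 counts, at 0.0234 to 0.0537 CPM in Control and THI + IMZ, lie under this limit, so they are not set apart from those with 0. In THI + CTD, too, 4 of 9 Kupffer cell and macrophage markers fell and 1 of 4 red blood cell markers rose. Over all genes 4.39% were called in THI + CTD. The part of these markers in the Cyp2c11 values was not tested. The family has close copies side by side in the genome, and reads that match several copies can be lost or divided between them, so the few counts of these genes beside the many of their neighbors are uncertain.

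**Figure D2:**
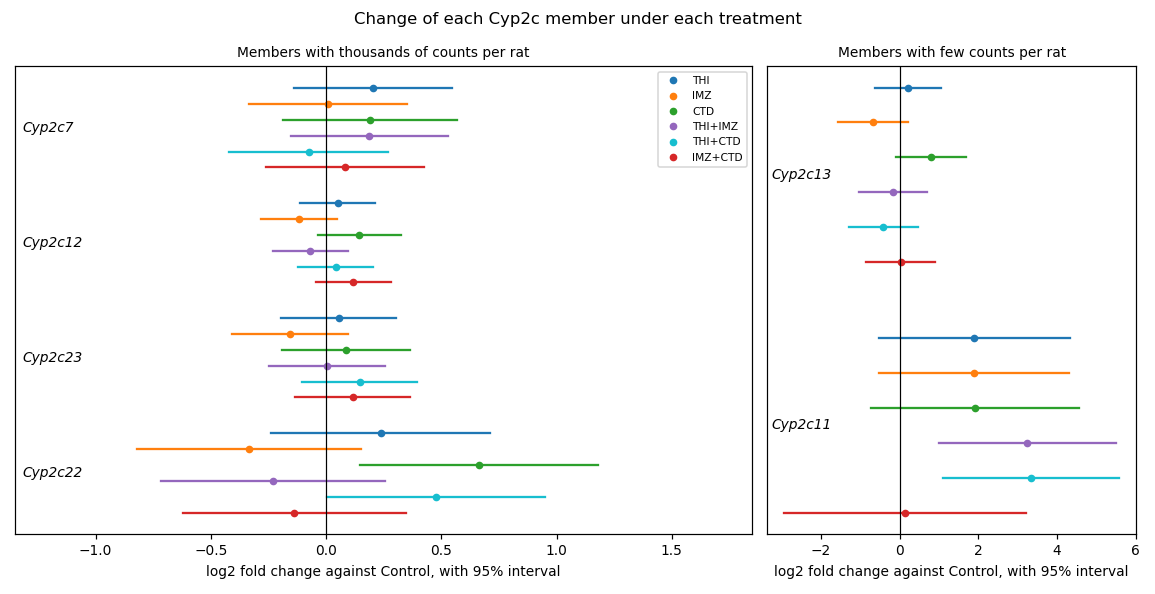
Log2 fold change against Control (horizontal axis, points) with its 95% interval (bars) for each Cyp2c member under each of the 6 treatments, on a wider scale in the right panel. Intervals of Cyp2c7, Cyp2c12 and Cyp2c23 all include 0, while Cyp2c22 in CTD is at 0.66 and Cyp2c11 is at 3.25 in THI + IMZ and 3.34 in THI + CTD with wide intervals above 0, the first turning to -1.31 without THI + IMZ replicate 4.

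Each mixture was also set against its dose-weighted sum, in which the change under THI or IMZ alone counted 0.5 and that under CTD alone 0.47. No member differed from the sum after adjustment by edgeR (0 of 6 in each), where 0.0151% of all genes differed in THI + IMZ, 0.286% in THI + CTD and 1.16% in IMZ + CTD. Over these 18 values, 1 had an unadjusted p under 0.05, where 6.46%, 9.66% and 14.3% of all genes did in the same order. This was Cyp2c13 under THI + CTD, which was lower than the sum by a log2 difference of -0.90 ± 0.44 (adjusted p = 0.518, edgeR). Cyp2c7 differed from its sum by 0.08 ± 0.17 under THI + IMZ, -0.27 ± 0.17 under THI + CTD and -0.01 ± 0.17 under IMZ + CTD. Cyp2c22 differed by -0.18 ± 0.24, 0.05 ± 0.24 and -0.28 ± 0.24 in the same order. For Cyp2c12 the 95% intervals were -0.20 to 0.13, -0.22 to 0.11 and -0.06 to 0.28.

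The single compounds, given at different doses, were compared in 3 pairs with p-values adjusted over genes and pairs together. No member passed in any pair (0 of 6 in each), where 0.266% of all genes were called between THI and IMZ, 5.16% between CTD and THI and 4.01% between CTD and IMZ. Before adjustment 1, 0 and 3 of 6 members had p under 0.05, beside 5.15%, 19.3% and 17.9% of all genes. The largest of these differences among well-covered members was that of Cyp2c22, which was higher in CTD than in IMZ by a log2 difference of 1.00 ± 0.29 (95% interval 0.40 to 1.59, adjusted p = 0.0544, edgeR). The 3 CTD rats, at 1056 to 1484 CPM, were all above the 4 IMZ rats, at 545 to 864 CPM. In a fit of only these 2 groups the adjusted p of Cyp2c22 was 0.0224 (edgeR). By the DESeq2 Wald test Cyp2c22 passed here with an adjusted p of 0.0203, and so did Cyp2c12 with 0.0436. Cyp2c12 was higher in CTD than in IMZ by 0.26 ± 0.10 in edgeR (adjusted p = 0.176) and Cyp2c13 by 1.48 ± 0.52 (adjusted p = 0.137). For CTD against THI, Cyp2c22 differed by 0.43 ± 0.29 (95% interval -0.17 to 1.02), and for THI against IMZ by 0.57 ± 0.27 (95% interval 0.01 to 1.13). Cyp2c7 differed by 0.18 ± 0.21 between CTD and IMZ, with a 95% interval of -0.25 to 0.61.

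P450 genes of the Cyp2b and Cyp3a subfamilies, listed as targets of CAR and PXR, mostly gave another picture in the same livers. Of 9 listed genes 6 were tested, and 3 or 4 of the 6 rose in every treatment with none falling. Cyp2b3 and Cyp3a62 did not pass in any treatment. Over all genes at most 12.7% were called in a treatment. Cyp2b2, the phenobarbital-inducible P450, rose by 3.65 ± 0.43 on the log2 scale under IMZ + CTD to 5.96 ± 0.45 under THI + CTD. Cyp2b1 rose by 5.20 ± 0.82 to 9.02 ± 0.88, Cyp3a23/3a1 by 2.28 ± 0.37 to 3.80 ± 0.34, and Cyp3a18 in THI, IMZ and THI + CTD. Cyp3a23/3a1 was at a low level in these counts, with a mean log2 CPM of -0.52 over all rats. By the paper's qRT-PCR, RNA-Seq underestimated the rise of this gene. The median log2 fold change of these 6 genes was 1.60 to 2.60 over the treatments, where that of the 6 Cyp2c members was -0.14 to 0.43 and that of all genes -0.07 to -0.01. The difference between the lists was not tested. No row of the Cyp2c name pattern was named Cyp2c6, so that gene is not part of this comparison.

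The redox and heme partners of P450 enzymes were listed as 8 genes, among them Por, the cytochromes b5, the heme-binding Pgrmc1 and Pgrmc2, and the heme oxygenase Hmox1. Of these, 3 rose under THI + IMZ, 2 under THI + CTD, 2 under CTD and none under THI, IMZ or IMZ + CTD, and none fell in any treatment. The share of all genes called was 1.18% under THI + IMZ, 4.39% under THI + CTD and 12.7% under CTD. Por, the P450 reductase, was 0.84 ± 0.20 higher under THI + CTD (adjusted p = 0.0122, edgeR) and 0.82 ± 0.20 higher under THI + IMZ, on the log2 scale. Cyb5a, a cytochrome b5, rose by 0.37 ± 0.09 under CTD and Pgrmc1, a heme-binding partner of P450s, by 0.52 ± 0.11. Among 24 receptors and factors known to act on Cyp2c genes, 1 rose and 4 fell under CTD, 1 rose and 1 fell under THI + CTD, 1 rose under THI + IMZ and 2 fell under IMZ + CTD. These are 5 of 24 under CTD, where 12.7% of all genes were called, and 2 of 24 under THI + CTD, where 4.39% were. Nr1i3 (CAR) rose by 1.37 ± 0.26 under THI + CTD, 1.24 ± 0.26 under THI + IMZ and 1.10 ± 0.29 under CTD. Stat5b, the growth hormone signal transducer, fell by 0.43 ± 0.07 under CTD and by 0.28 ± 0.07 under THI + CTD. Cux2, a female-pattern repressor of male genes, fell by 0.48 ± 0.12 under CTD, and Dbp, a clock output factor, by 1.09 ± 0.18 under IMZ + CTD.

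Female-pattern liver genes outside the family included some that fell. Of 7 listed genes 6 were tested, and 1 (Cux2, given above) fell under CTD and 2 under THI + CTD with none rising. The share of all genes called was 12.7% under CTD, near 1 of 6, and 4.39% under THI + CTD. A1bg, a plasma glycoprotein gene with high expression in females, had a log2 fold change of -1.16 ± 0.31 under THI + CTD (adjusted p = 0.0255, edgeR) and Prlr, the prolactin receptor, one of -1.15 ± 0.30 (adjusted p = 0.0202, edgeR). In the same 4 rats Cyp2c7 was at -0.08 ± 0.17 and Cyp2c12 at 0.04 ± 0.08, values that did not pass, and whether the genes differ in response was not tested. Of 8 listed male-pattern genes 5 were tested and none passed in any treatment, with list medians from -0.06 to 1.05 on the log2 scale. The 1.05, under THI + IMZ, is the value of a gene near the floor, with an SE of 1.19 and counts in 17 of 31 rats. In that group Rup2 was at -0.04, Dhrs7 at 0.05 and Bcl6 at 1.13 ± 0.52.

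Lists of genes around the substrates of Cyp2c7 and Cyp2c23, and around bile acids, are given by their counts. The bile acid list stands beside Cyp2c22 only through its synonym Cyp2c70, and the substrates of Cyp2c22 were not tested. The share of all genes called was 12.7% under CTD, 4.39% under THI + CTD and at most 1.46% in the other treatments. Among 16 genes of retinoid handling, the substrate class of Cyp2c7, 3 rose and 2 fell under CTD, 3 rose and 1 fell under THI + CTD, 2 rose under THI, and 1 rose in each of the other 3 treatments. Aldh1a1, a retinal dehydrogenase, rose in all 6, by 1.49 ± 0.24 to 2.47 ± 0.24, and Aldh1a7, a related dehydrogenase, by 2.53 ± 0.40 under CTD. Rbp4, the plasma carrier of retinol, fell by 0.34 ± 0.09 under CTD. Of 13 tested genes around arachidonic acid, the substrate of Cyp2c23, 3 rose under THI + CTD, 2 rose and 2 fell under CTD, and 1 rose under THI and THI + IMZ. Cyp4a and Cyp4f genes and phospholipases are among the 13, so the counts are not those of epoxygenation and epoxide hydrolysis alone. Cyp4f4, at -0.25 ± 0.07, was 1 of those that fell under CTD. Ephx1, microsomal epoxide hydrolase, rose by 1.60 ± 0.24 under THI + CTD, and Ephx2, the soluble hydrolase of epoxyeicosatrienoic acids, fell by 0.76 ± 0.11 under CTD. In bile acid synthesis and transport, 11 genes, Cyp7a1 fell by 2.90 ± 0.56 under THI + IMZ and by 2.45 ± 0.55 under THI. Akr1d1 rose by 0.54 ± 0.13 and Cyp8b1 fell by 1.17 ± 0.39 under CTD, the group in which Cyp2c22 was highest. The remaining call of this list was Akr1d1 at 0.49 ± 0.12 under THI + CTD.

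The members were also compared within groups, between rats of the same treatment. From each log2 CPM the mean of its group was subtracted, and the 15 pairs of members were correlated over 31 rats, with p-values from 100000 permutations of rats within groups (permutation test, two-sided) adjusted over the 15 pairs. Cyp2c7 and Cyp2c11 ran against each other, with r = -0.79 (p = 8e-05, adjusted p = 0.0012, permutation) and rho = -0.72 (p = 0.0001, adjusted p = 0.0015, permutation). Without the 2 rats farthest from the median of Cyp2c7, IMZ replicate 2 and THI + IMZ replicate 4, r was -0.67. It was -0.56 in the 8 Control rats and -0.83 in the 23 treated rats. Cyp2c7 was above its group mean in 9 of the 10 rats with no Cyp2c11 count and in 8 of the other 21. Among these 21, the Control and THI + IMZ rats with 1 to 4 counts are not set apart from 0. In IMZ, CTD and THI + IMZ the rat with the least Cyp2c7 was the rat with the most Cyp2c11, and in the other 4 groups it was not. Such matches can arise by chance in groups this small, and the CTD rats differed little in Cyp2c7, at 7990 to 8234 CPM. The rat of THI + IMZ with 157 Cyp2c11 counts had 4399 CPM of Cyp2c7, the lowest value of the study.

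**Figure D3:**
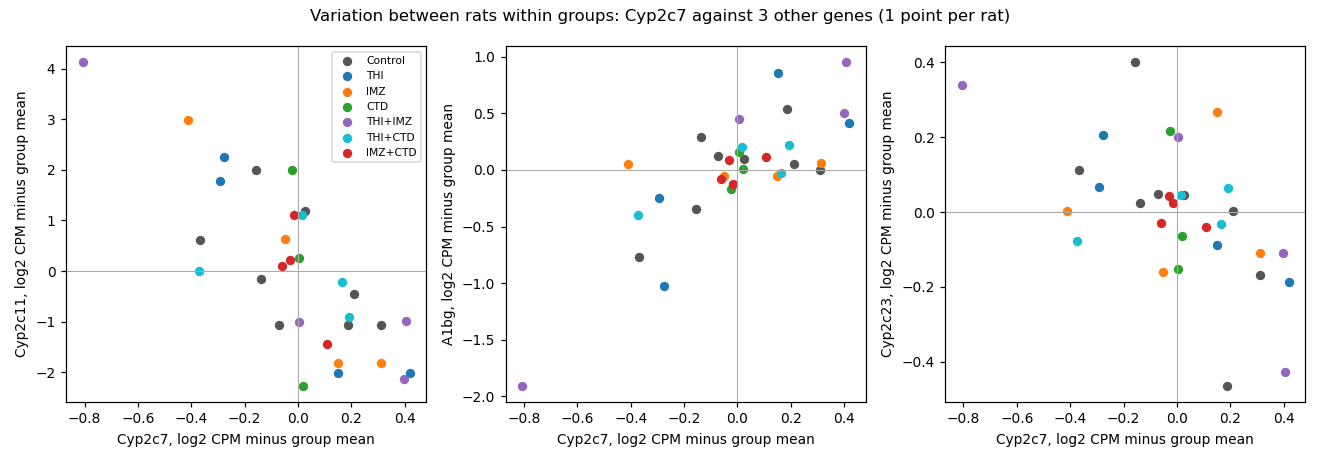
Deviation of each rat from the mean of its group in log2 CPM, for Cyp2c7 on the horizontal axis and Cyp2c11 (left), A1bg (middle) or Cyp2c23 (right) on the vertical axis, colored by group. Rats with more Cyp2c7 have less Cyp2c11 (r = -0.79) and more A1bg (r = 0.78), and the THI + IMZ rat at -0.81 on the horizontal axis lies farthest out.

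The other pairs were weaker. Cyp2c7 also ran against Cyp2c23, with r = -0.57 (adjusted p = 0.046, permutation) and rho = -0.57 (adjusted p = 0.046, permutation), and r = -0.52 without the same 2 rats. Cyp2c23 and Cyp2c22 varied together with r = 0.54 (adjusted p = 0.043, permutation), but rho was 0.39 (adjusted p = 0.15, permutation) and r was 0.35 without the 2 outermost rats. Cyp2c22 and Cyp2c11 gave r = 0.44 (adjusted p = 0.043, permutation) and rho = 0.43 (adjusted p = 0.046, permutation), and r = 0.51 without the 2 outermost rats. Cyp2c23 and Cyp2c11 gave r = 0.52 (adjusted p = 0.052, permutation) and rho = 0.53 (adjusted p = 0.046, permutation). Cyp2c7 and Cyp2c12, the female-pattern pair, gave r = 0.47 (adjusted p = 0.052, permutation) and rho = 0.50 (adjusted p = 0.046, permutation), with r = 0.62 in treated rats and -0.13 in Control rats. Cyp2c13 and Cyp2c11, the male-pattern pair, were not related beyond their spread, with r = 0.10 (p = 0.68, permutation). Of the 4 pairs past the threshold in r, the pair of Cyp2c7 and Cyp2c11 stayed past it without each of the 31 rats in turn, with r from -0.82 to -0.69. Without 1 rat the adjusted p (permutation) ran from 0.0129 to 0.0992 for Cyp2c7 and Cyp2c23, from 0.0129 to 0.143 for Cyp2c23 and Cyp2c22 and from 0.0175 to 0.0992 for Cyp2c22 and Cyp2c11, and 17, 11 and 11 of the 31 rats ended the call.

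**Figure D4:**
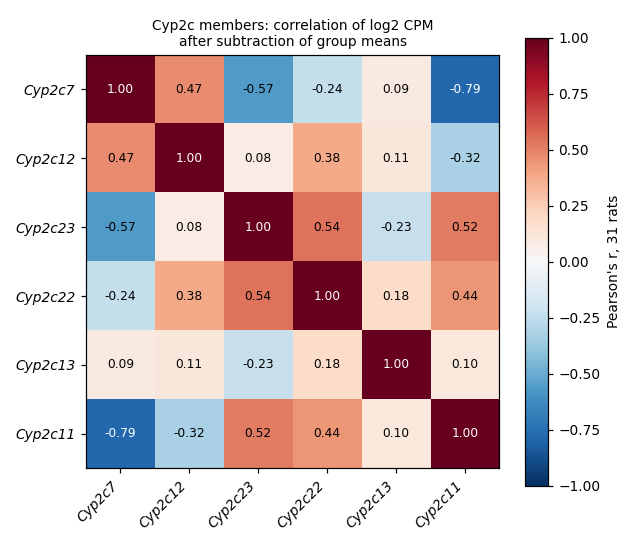
Pearson's r between the log2 CPM of each pair of the 6 Cyp2c members over 31 rats after subtraction of group means, from -1 (blue) to 1 (red). Cyp2c7 and Cyp2c11 stand out at -0.79, and Cyp2c13 has no r beyond 0.23 in size.

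Genes other than the members were ranked by their likeness to the 3 members with the most counts, as the correlation of log2 CPM within groups over 31 rats and 11187 genes. Most like Cyp2c7 were 2 genes without a symbol in the count table, ENSRNOG00000024016 (r = 0.91) and ENSRNOG00000030005 (r = 0.79), followed by A1bg (r = 0.78). Membership went by symbol, so whether these 2 genes belong to the family or share reads with Cyp2c7 is not known. Most like Cyp2c12 were Plbd1, Cox6c and Hdhd2, with r = 0.75, 0.75 and 0.74, and most like Cyp2c23 were Ces2j (r = 0.84), Cd81 (r = 0.83) and SLC25A51 (r = 0.83). These were picked as the highest of many and are a description.

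Cyp2c7 and Cyp2c11 were then set against all 11187 genes, with permutation p-values adjusted over the 22374 relations. None passed after adjustment (smallest adjusted p = 0.224), while 7.37% of genes had an unadjusted p under 0.05 with Cyp2c7 and 8.05% with Cyp2c11. The genes named next were singled out after their values were seen. The female-pattern list of 5 genes with a mean log2 CPM above 0 had r from 0.12 to 0.78 with Cyp2c7 and from -0.69 to -0.12 with Cyp2c11. A1bg was at r = 0.78 with Cyp2c7 (rho = 0.65, p = 0.00079 and 0.0016, adjusted p = 0.48 and 0.65, permutation) and at -0.69 with Cyp2c11. Prlr was at 0.63 and -0.65, Sult2a1, a steroid sulfotransferase, at 0.52 and -0.55, and Cyp2a1 and Cux2 were within 0.16 of 0 with both. Ghr, the growth hormone receptor, was at 0.64 with Cyp2c7 and -0.52 with Cyp2c11 (p = 0.0048 and 0.025, adjusted p = 0.5 and 0.6, permutation). Bcl6, a male-pattern repressor, had the opposite signs, -0.49 and 0.58, but without the 2 outermost rats its r with Cyp2c7 was -0.19. The other male-pattern genes of this list with a mean log2 CPM above 0 were Rup2, at 0.07 with Cyp2c7 and 0.09 with Cyp2c11, and Dhrs7, at -0.20 and 0.12. Without the same 2 rats A1bg kept r = 0.71, Ghr 0.52 and Prlr 0.48 with Cyp2c7. The medians over all genes were -0.02 for Cyp2c7 and 0.01 for Cyp2c11, and since both members ran against each other, opposite signs with another gene are not separate observations. Hepatocyte markers had r between -0.39 and 0.59 with Cyp2c7 (median 0.01) and red blood cell markers between -0.08 and 0.03. Single markers of other cells reached values as large as the female-pattern genes, with the intestine marker Fabp2 at r = 0.64 (p = 0.0046, adjusted p = 0.5, permutation) and the bile duct marker Epcam at -0.58 (p = 0.012, adjusted p = 0.57, permutation) with Cyp2c7, and their part in these relations was not tested.

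**Figure D5:**
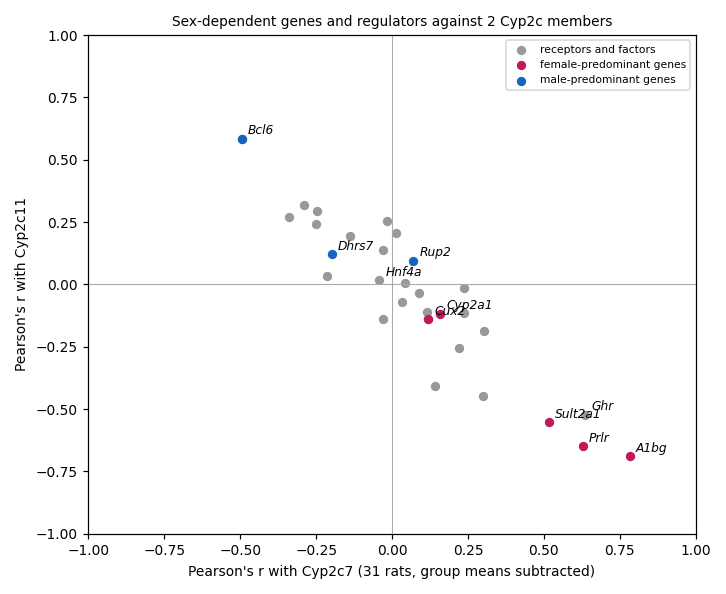
Pearson's r with Cyp2c7 (horizontal axis) and with Cyp2c11 (vertical axis) over 31 rats, group means subtracted, for genes with a mean log2 CPM above 0 of 3 lists: receptors and factors (gray), female-pattern genes (red) and male-pattern genes (blue). A1bg, Prlr, Sult2a1 and Ghr lie at 0.52 to 0.78 with Cyp2c7, and Bcl6 lies at the opposite end.

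Of the genes under the count minimum, Cyp2c24 had no count in any of the 8 Control rats and at least 1 in 12 of 23 treated rats, with 1, 7, 10 and 1 counts under THI + CTD. It had a count in 11 of the 21 rats with Cyp2c11 counts and in 1 of the 10 without. This split pools the groups and cannot be told apart from treatment. All 4 THI + CTD rats had counts of both genes and no Control rat had Cyp2c24. Rats with few Cyp2c11 counts are also not set apart from those with 0. Cyp2c79 had counts in 13 of 31 rats, at most 7 in one. Both genes were in the common fit but are not counted among the members. Cyp2c24 had an adjusted p of 0.0247 (edgeR) under THI + CTD against Control, which rests on 19 counts in 4 rats. No other comparison of Cyp2c24 or Cyp2c79 passed in that fit. With so few counts nothing is drawn from these values.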

How the data were processed

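Liver RNA of 31 female rats was sequenced from a stranded total RNA kit, with Control in 8 rats, CTD in 3 and each other group in 4. Per the submitters' processing notes the tools were FastQC 0.11.5, STAR 2.5.2b and DESeq2 1.15.1 with genome Rnor_5.0; the annotation and the strand setting of the counting are not given in the sources used here. The authors deposited raw counts per gene, and a second table of counts divided by DESeq2 size factors, a signal per gene. Of the deposited signal values, 100% were whole when multiplied by the size factor within 1e-06 and equal to the counts, so a test of recovered reads is the test of the counts, with the same calls.

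Genes with a count sum of at least 2 (19904 of 26312) entered 1 fit over all 7 groups with TMM factors in edgeR 4.0.16 under R 4.3.3 (quasi-likelihood F test, older method, common biological variation 19.4%). Standard errors came from the F value, and 95% intervals from its degrees of freedom. Log2 CPM used a prior count of 2. Comparisons were each treatment with Control, each mixture with the dose-weighted sum and the single compounds in 3 pairs. The fit was tested on simulated data. DESeq2 1.42.0, other filters and factors, the groups compared alone, a replicate block and fits without each rat were alternatives. Correlations used log2 CPM minus group means, with Python 3.11.15, numpy 2.4.6, pandas 2.3.3 and scipy 1.17.1. Matplotlib 3.10.9 drew the plots. Samples are labelled as replicates within a group, and p-values measure the spread between these rats.

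The members, the 8 gene lists and the 10 marker lists were chosen with earlier results of these data known. All members were named. From each list at most 4 genes past the threshold were named, those of smallest adjusted p first, and for likeness the 3 genes with the highest r with each of the 3 members of highest mean log2 CPM. Genes of a list without a counted symbol of that name, or under the filter, were not tested, and 1 listed gene is not reported here by name. Sequences came from RefSeq (GRCr8), where all 6 members matched; protein sequences and other genes of the family were not analysed here.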

Additional observations from a re-analysis of the deposited data

How the results depend on the processing

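The comparisons were repeated in 39 other fits, 31 of them without 1 rat. Of 459 counts of Cyp2c members past the threshold 443 kept the value of 0, and no fold change that passed in any fit reversed. For CTD against IMZ the count was 2 by the DESeq2 Wald test (Cyp2c12 and Cyp2c22), 1 with the filterByExpr filter and 1 with only the groups compared (Cyp2c22 in both), and 0 to 1 without 1 rat. It was 1 without Control replicate 2, IMZ replicate 2 or 4, THI + IMZ replicate 1, 2 or 4, or THI + CTD replicate 2 or 4, and the gene was Cyp2c22 except without IMZ replicate 4, where it was Cyp2c13 (log2 difference 2.06, adjusted p = 0.0419, edgeR). For THI + CTD against Control it was 1 under the newer quasi-likelihood method and 1 with only the groups compared, and 0 to 1 without 1 rat (Control replicate 4 or THI + IMZ replicate 4), always Cyp2c11, with adjusted p-values of edgeR from 0.0082 to 0.0443. For CTD against Control it was 0 to 1, with Cyp2c22 at 0.66 and an adjusted p of 0.0441 (edgeR) without THI + CTD replicate 4. The cause was not tested. In the other 9 comparisons the count was 0 in all fits.

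The labels do not say whether equal replicate numbers pair the rats, and correlations alone cannot settle it. Over 78 same-numbered pairs of rats from different groups, correlations of deviations ran from -0.27 to 0.42 (median 0.02), and 20 were over 0.1. In 1 of 21 pairs of groups, THI with THI + IMZ, all were over 0.1, at 0.102 to 0.412. With the replicate number as a block 0 members passed in all 12 comparisons, and the smallest adjusted p was 0.0806 for CTD against IMZ (edgeR).

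The correlation alternatives were chosen after seeing the data. On the deposited normalized values, as log2 of value plus 1, Cyp2c7 and Cyp2c11 gave r = -0.78 (adjusted p = 0.0006, permutation). Cyp2c7 with Cyp2c12 and Cyp2c23 with Cyp2c11 then passed, each with an adjusted p of 0.0457 (permutation). Depth limits Cyp2c11 and Cyp2c13, which rest on at most 157 and 49 counts in a rat.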
